A study of Mus musculus with 6 samples.

Results

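Among the peaks that the authors called for Sox9 in the E12.5 vertebral column, those that were strong, clean in the control and far from any other peak were examined. A peak was chosen by the tags within 250 bp of its summit, the position of highest coverage. It had to hold at least 30 Sox9 tags and at most 6 IgG tags, counted once per position and strand, and no other summit of the list was to lie within 10 kb. Of the 3722 peaks, 3671 were on autosomes, 780 of these held at least 30 Sox9 tags, 612 of these held at most 6 IgG tags, and 523 were also isolated. These 523 peaks were 14.1% of the list. On mm9, 518 of them could be placed, and all statements on sequence and genes rest on these 518.

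The series comprised 6 chromatin immunoprecipitation sequencing (ChIP-Seq) libraries, 1 per condition, so that no spread between embryos or preparations could be measured. Sox9 was pulled down with an anti-Sox9 antibody and its control with IgG, both from CD1 embryos, wild type per the Sox9 label, and the labels name the tissue of this pair as the vertebral column and, in another field, as vertebral column and limb. Bapx1 (Nkx3.2) came from CD1 vertebral columns in which the endogenous gene carried an S-peptide tag. Its control was the same antibody on wildtype embryos. These libraries, like those of Sox9 and IgG, were from embryos at E12.5. In NIH3T3, a mouse fibroblast line, V5 tagged Bapx1 was overexpressed, and the control, labelled both as empty pcDNA6 vector and as wild type cells, was pulled down with the V5 antibody. The libraries held between 9124697 and 24855032 tags, with 12784870 for Sox9 and 13330825 for IgG. No label names a sort of the embryonic tissue by cell type, so that the cells that contributed the chromatin were not resolved, and expression markers were not measured in these libraries.

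Sox9 is the transcription factor that commits mesenchymal cells to the cartilage fate, and it is active in the cells that form the vertebrae. It contacts DNA through an HMG box, a domain that binds short sites built around the letters ACAA. In chondrocytes it can bind as a dimer to such sites that face each other as an inverted repeat, as known for enhancers of cartilage matrix genes, where it acts with its relatives Sox5 and Sox6. Other cells of the embryo also express Sox9, among them neural progenitors.

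The positions of the Sox9 and IgG libraries lay on mm8, the mouse assembly before mm9. The last tag of a chromosome lay within 1000 bp of the mm8 end on 16 of the 19 autosomes for Sox9 and on 15 for IgG, and no tag lay past it. Against mm9, no autosome matched within 1000 bp and 5 had tags past the end in both libraries. For the Bapx1 and wildtype S-peptide libraries the relation was the reverse, with 15 of 19 autosomes matching mm9 and none matching mm8. The V5 Bapx1 and control libraries of NIH3T3 also lay on mm9, with 14 and 13 autosomes matching it and none matching mm8. Each peak was therefore placed on mm9 by matching the tags around it with those of the Bapx1 and wildtype S-peptide libraries, and then to the base by the base composition at the ends of the tags. The displacement had a median size of 91.1 kb, reached 7481 kb, and exceeded 1 kb for 503 of the 518 peaks. The sides to the left and right of a peak gave the same displacement for 504 of the 523 peaks. Matching against the wildtype S-peptide library alone, itself part of the main match, gave the same base for 515 of the 518. The library matched against entered only the first step and not the step to the base. This number therefore bears on the first step alone. Only 185 of the 518 had the same nearest gene at the deposited coordinates as at the placed position.

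By its excess over windows 500 bp to either side, the strongest feature of the placed peaks was a pair of ACAA sites facing each other. It is written ACAA and TTGT on 1 strand with 7, 8 or 9 bases between the sites. By share of peaks, the single Sox motif described below was more frequent. The pairs of the 9 peaks with the most Sox9 tags among those that hold one are printed below, since they show the arrangement itself, each with 6 bases on either side. Capitals mark ACAA and TTGT, and each line gives the gene with the nearest protein-coding transcription start site (TSS) and the mm9 position of the plus strand.
Cbln1, chr8:89873802-89873829: aggcatACAAaggaggcaTTGTtgggtg
Efnb2, chr8:8619725-8619752: ttcacaACAAtggcccctTTGTtccccg
Prr18, chr17:8565682-8565708: ctatgaACAAaggctccTTGTtctacg
Ctnnbl1, chr2:157627155-157627182: gctcgcACAAagccccctTTGTgtctcc
Rab11fip4, chr11:79397946-79397974: gccagcACAAaggcaggcaTTGTactgtc
Krr1, chr10:111362663-111362690: gaaataACAAggaggtcaTTGTtctctg
Snx9, chr17:5770623-5770650: aggagtACAAagggccccTTGTatgaga
Spsb4, chr9:96862726-96862753: agggctACAAaggctcacTTGTgctggg
Rpl30-ps8, chr12:100279962-100279989: gaccacACAAtggcccctTTGTgtagct
Across these 9 sequences the letters outside the capitals differ, while in most of them the letters after ACAA continue as AG or TG.

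Such a pair lay within 50 bp of the summit in 196 of 518 peaks, 37.8% (95% interval 33.6 to 42.2, exact binomial as throughout). At 500 bp to either side of the summits, windows as long held it in 5 of 1036, 0.483% (0.157 to 1.12). The difference was significant by a two-sided Fisher's exact test on regions (adjusted p = 2.18e-97, with p-values adjusted by the Benjamini-Hochberg method over the 19 such tests of this report). This spacing was chosen after the counts at all spacings had been seen. A gap of 8 bases was the most frequent, with 130 peaks, against 33 with 7 bases and 35 with 9. In the flanks, a gap of 8 was found in 3 windows on the left and 1 on the right. At the other gaps between 0 and 26 bases, no more than 8 peaks held an inverted pair at the summit. For sites facing away from each other no gap was held by more than 6 peaks, and for sites in tandem by no more than 8. The inverted arrangement at 7 to 9 bases thus stood apart in number from every other arrangement counted, as the plot of half-site spacing shows.

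**Figure D1:**
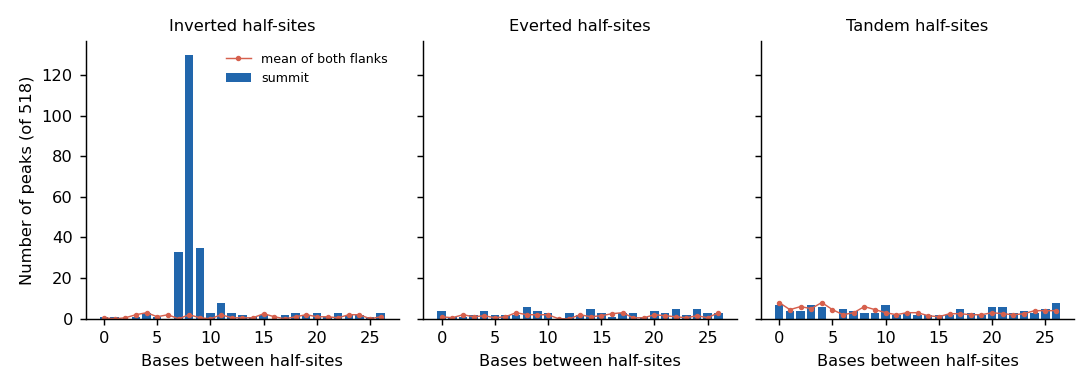
Number of the 518 strong isolated peaks (y axis) that hold 2 ACAA sites within 50 bp of the summit, by the bases between them (x axis), for inverted, everted and tandem pairs. Bars are summits and the line is the mean of the 2 flanks, 500 bp away; the inverted pair with 8 bases is held by 130 peaks.

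The letters around the 130 pairs with 8 bases between them were counted over both readings, since an inverted pair reads alike on either strand. The base after ACAA was A or T in 81.9% of readings, and the next was G in 76.2%. The base before ACAA was A in 41.9% of readings and C in 27.7%. At the 2 middle positions of the gap, the commonest base reached 29.6%.

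The 6-letter words with the greatest excess at the summits over the flanks belonged to the same site. ACAAAG, read on either strand, was within 50 bp of 46.5% of the summits, against 11.4% and 8.49% in the left and right flank. GAACAA was found at 34.0% of the summits, against 6.18% and 6.56%. ACAATG was found at 31.5%, against 6.56% and 5.98%.

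The single Sox motif was searched as 7 letters, namely A or T at the first and the second position, then CAA, then A or T, then G, on both strands. It shares letters with the inverted pair, so the counts overlap. It occurred within 50 bp of the summit in 251 of 518 peaks, 48.5% (44.1 to 52.9), against 167 of 1036 flanks, 16.1% (13.9 to 18.5), which differed significantly (Fisher's exact test, adjusted p = 2e-39). Both the motif and the inverted pair were present in 124 peaks, the pair alone in 72, the motif alone in 127 and neither in 195. The 124 peaks with both had a median of 44.5 Sox9 tags (30 to 191), the 72 with the pair alone 45 (30 to 110), the 127 with the motif alone 39 (30 to 112), and the 195 with neither 38 (30 to 149). The ranges overlapped throughout. If 1 of the 8 letters of the pair was allowed to differ, 371 of 518 peaks held a pair, 71.6%, against 14.7% of the flanks and 54.8% of the other Sox9 peaks, and 87 of the 195 peaks with neither were among the 371.

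At the deposited coordinates, read on mm9, the motif was found at 18.3% of the same summits (15.1 to 22.0), which did not differ significantly from its flanks at 16% (p = 0.25 by Fisher's exact test), and the inverted pair at 1.93%, against 0.483% of its flanks (p = 0.0104 by Fisher's exact test). All other statements on sequence rest on the placed positions. The motifs did not centre on the summit but to its left: the 10-bp interval with the most motifs, 53, began 20 bp left of it, and the median centre of the inverted pairs within 150 bp was 19 bp left of it. In the 4 vertebral column libraries, the base composition placed the 5′ end of minus strand tags 2 bp left of their listed start, and not at the listed end. The deposited intervals of these tags therefore lay beyond their reads. Within 250 bp of the 518 summits the 5′ ends of the plus strand tags had a median 73 bp left of the summit and those of the minus strand 36 bp right of it, with a midpoint of -18.5 bp. A window centred at this midpoint held the motif in 52.1% of peaks (47.7 to 56.5).

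**Figure D2:**
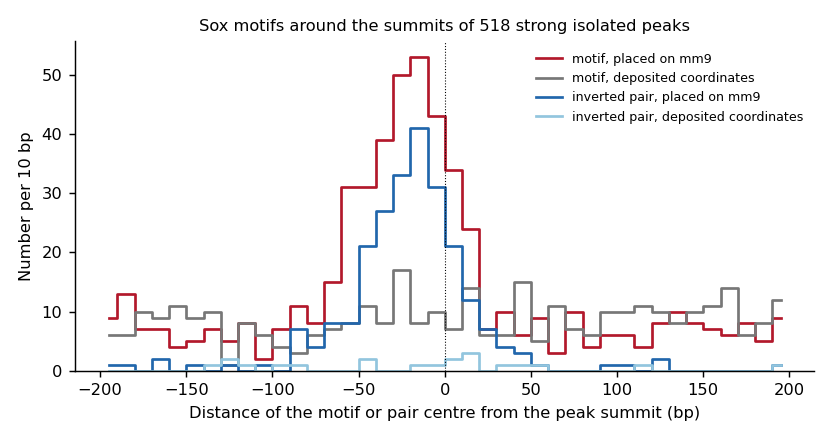
Sox motifs and inverted pairs per 10 bp (y axis) by the distance of their centre from the summit in bp (x axis), for 518 strong isolated peaks. Lines give counts at the positions placed on mm9 and at the deposited coordinates; the placed motifs peak left of the summit with 53 in 10 bp, whereas the deposited ones show no peak of that height.

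Around the centre of the inverted pair, the tags of the 2 strands separated. Over the 196 peaks that hold a pair, 83.5% of the 5183 Sox9 plus strand ends within 250 bp lay left of the centre of the pair, with a median of -56 bp (quartiles -99.3 and -15.5). Of the 5076 minus strand ends, 83.1% lay right of it, with a median of 58 bp (14 and 103). The pair thus lay between the strands, nearly at their midpoint. These peaks were kept for a pair within 50 bp of a summit that was called from the same tags. The separation was therefore partly set by this choice and is given as a description. The IgG library held 2 to 14 tags per 10 bp and strand between 200 bp left and right, and since the rule limited its tags at each peak it is no control for the separation.

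**Figure D3:**
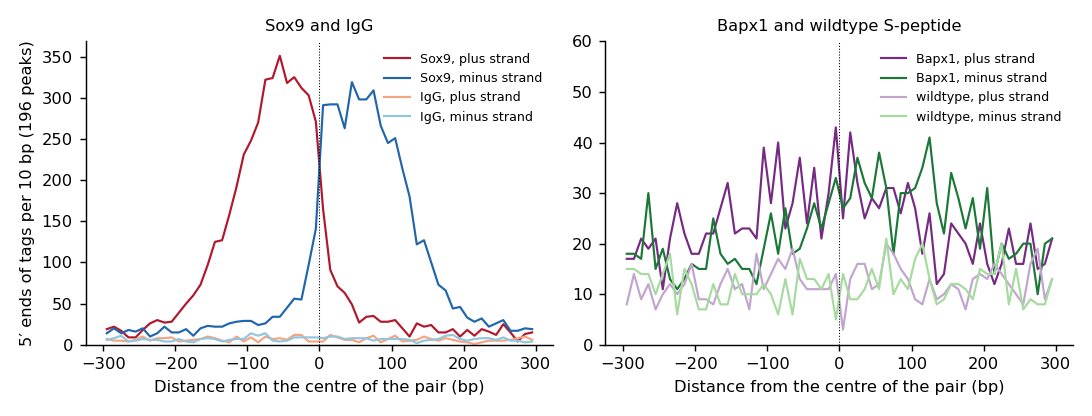
5′ ends of tags per 10 bp (y axis), summed over 196 peaks with an inverted pair, by distance from the centre of the pair in bp (x axis) and strand; Sox9 and IgG on the left, Bapx1 and wildtype S-peptide on the right with its own scale, as numbers of tags not scaled to the libraries. Sox9 plus strand ends reach 351 per 10 bp to the left of the centre and minus strand ends 319 to its right.

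The share of peaks with the pair is given by Sox9 tags as a description, since these tags chose the peaks. Among the strong isolated peaks it was 29.6% (24.1 to 35.7) of the 253 with 30 to 39 tags, 43.8% (36.1 to 51.8) of the 162 with 40 to 59, 46.6% (35.9 to 57.5) of the 88 with 60 to 99, and 60% (32.3 to 83.7) of the 15 with 100 or more. The motif was held by 45.1% (38.8 to 51.4), 50.6% (42.7 to 58.6), 51.1% (40.2 to 61.9) and 66.7% (38.4 to 88.2) of the same groups. For the pair, the lowest group lay below the interval of the next, while the intervals of the upper 3 overlapped. For the motif, all 4 intervals overlapped. At the tag minimum itself the order was the other way: the pair was held by 5 of the 32 peaks with exactly 30 tags and by 11 of the 34 placed peaks left out with 29, and the motif by 9 and 18 of the same peaks.

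**Figure D4:**
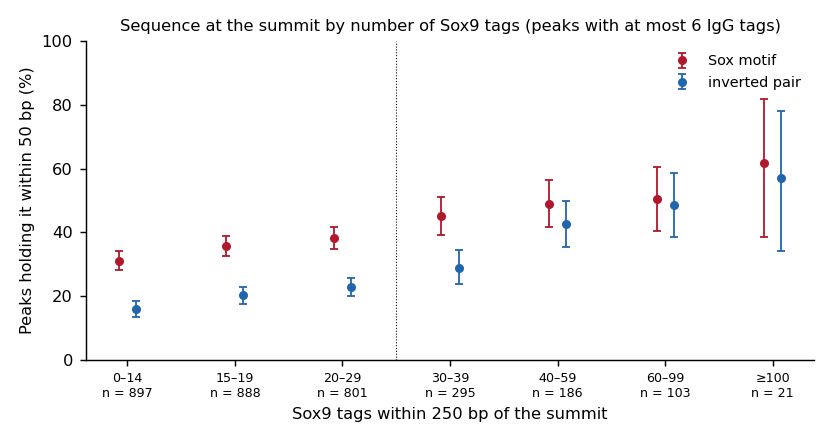
Share of peaks with the Sox motif or the inverted pair within 50 bp of the summit in percent (y axis), by Sox9 tags within 250 bp (x axis), for placed autosomal peaks with at most 6 IgG tags, isolated or not. Points are shares, bars are exact binomial 95% intervals, and the dotted line is the tag minimum; the pair was held by 15.8% of the weakest group and by 57.1% of the 21 strongest peaks.

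Compared with the rest of the list, the strong isolated peaks held the pair more often. It was present in 629 of the 3084 other placed autosomal peaks, 20.4% (19 to 21.9), against 37.8% (Fisher's exact test, adjusted p = 3.91e-16), and the motif in 35.2% (33.6 to 37.0), against 48.5% (adjusted p = 3.85e-08). The 87 placed peaks that met both tag limits but had another summit within 10 kb held the pair in 34.5% (24.6 to 45.4), and this did not differ significantly from the isolated ones (Fisher's exact test, adjusted p = 0.706). The 2832 peaks with fewer than 30 Sox9 tags held it in 19.4% (18 to 20.9), and this differed (Fisher's exact test, adjusted p = 6.48e-18). The 165 placed peaks with at least 30 Sox9 tags but more than 6 IgG tags held it in 29.7% (22.9 to 37.3), which did not differ significantly from 37.8% (Fisher's exact test, adjusted p = 0.108).

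Since tag numbers chose the peaks, they are given as a description only, and more cells bound at a site cannot be told apart from stronger binding per cell. The Sox9 tags per peak had a median of 40 and ranged from 30 to 191, and the IgG tags had a median of 4, with 19 peaks at 0. Summed over the 523 peaks, 25049 Sox9 tags stood against 1815 IgG tags, a ratio of 14.4 scaled to the tags on the chromosomes. Between 2 and 5 kb from the placed summits this ratio was 0.954 (exact binomial 95% interval 0.937 to 0.972). The rule counted no tags there, but it let no other summit of the list lie there. This ratio was thus partly set by the choice of peaks and is no free reference. By the authors' values the fold enrichment had a median of 26.9, and 461 of the 523 peaks had a false discovery rate (FDR) of at most 5%. At the limits, 32 peaks held exactly 30 Sox9 tags, and 36 isolated peaks with few IgG tags were left out with 29. The first of each in the order of the list were near Ptprb, Ypel2 and Stat5b with 30 tags, and near Slc22a16, Ddx1 and Zfp36l1 with 29. The nearest other summit was 10073 bp away for the closest of the peaks, and at most 9467 bp away among those left out for it. Of the 518, 12 shared a stretch of 40 bases with another within 250 bp of the summit.

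The peaks were spread over all 19 autosomes, with 14 to 45 on each, and lay mostly away from TSSs. Of the 518, 260 were intergenic, 242 in an intron, 11 in the untranslated part of an exon and 5 in a coding exon. The median distance to the nearest TSS of any transcript was 20.9 kb. Within 5 kb of a TSS lay 106 peaks, 20.5% (17.1 to 24.2), against 21.0% of the other peaks, which did not differ significantly (Fisher's exact test, adjusted p = 0.816). More than 25 kb away lay 231, 44.6% (40.3 to 49), against 48.1% (Fisher's exact test, adjusted p = 0.206). With protein-coding transcripts alone the shares were 12.9% and 60.4%. The pair was found in 38.7% (29.4 to 48.6) of the 106 peaks near a TSS and in 36.8% (30.6 to 43.4) of the 231 distant ones, which did not differ significantly (Fisher's exact test, adjusted p = 0.816). Few of the peaks lay in CpG-rich sequence: the observed over expected CpG ratio exceeded 0.6 in 12 of 518, 2.32%, against 4.31% of the other peaks.

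The peak with the most Sox9 tags, 191 against 6 of IgG, was intergenic on chromosome 8, 121.1 kb from the TSS of Cbln1, which encodes a secreted synapse-organising protein. It held 18 tags of Bapx1, 11 of wildtype S-peptide, 3 of V5 Bapx1 in NIH3T3 and 3 of its control. The next, with 172 Sox9 and 6 IgG tags, lay 19.6 kb from the TSS of Efnb2, in an untranslated part of its exon. Efnb2 encodes ephrin-B2, a membrane-bound ligand of Eph receptors, and a further peak had it as the nearest gene. Both of these strongest peaks held the motif and an inverted pair with 8 bases, shown above. An intron of Bcl7a held a peak with 149 Sox9 and 5 IgG tags and neither sequence. An intron of Sft2d1, near Prr18, held a peak with 148 and 2 tags and a pair with 7 bases.

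The next peaks in order of Sox9 tags were near genes of varied function. A peak 16.8 kb from Plce1, which encodes a phospholipase C, held 143 Sox9 and 5 IgG tags and no pair. An intron of Fam19a5 held 129 and 6 tags and no pair, and an intron of Ctnnbl1 held 126 and 4 tags and a pair with 8 bases. On chromosome 13 lay a peak with 124 Sox9 and 2 IgG tags that could not be placed on mm9. A peak 6.7 kb from Rab11fip4, whose product acts in the recycling of endosomes, held 123 and 3 tags and a pair with 9 bases. Peaks near Krr1, Snx9 and Spsb4 held 122, 116 and 114 Sox9 tags against 2, 4 and 6 of IgG, and each held a pair with 8 bases. Of the remaining ones, those on chromosome 18 held 112 and 103 Sox9 tags without a pair, that on chromosome 12 near Rpl30-ps8 held 110 with a pair, and that in Kank1 held 105 with the motif but no pair. Thus 9 of the 15 placed peaks with 100 or more Sox9 tags held the inverted pair.

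Genes known for cartilage and the axial skeleton were taken as lists. Within 100 kb of a TSS, 8 of the 33 listed autosomal genes of the cartilage matrix had a strong isolated peak, namely Acan, Col9a1, Col11a2, Matn2, Mia1, Papss2, Chsy1 and Serpinh1, that is 24.2%. Of the 43 genes listed as transcription factors 8 had one, 18.6%, although 1 of these, Wwp2, encodes a ubiquitin ligase. Of the 36 signals and receptors 6 had one, 16.7%, and of the 25 neural genes 2, 8.0%. Over all 21275 protein-coding autosomal genes the share was 4.96%. Other Sox9 peaks lay as near to 63.6%, 60.5%, 47.2% and 40% of the same lists, and to 22.5% of all these genes. The lists hold few genes, and no test was made on them. Several genes of the lists had no strong isolated peak within 100 kb, and in 4 examples chosen after their values were seen the nearest other peak failed a tag limit. This was, for Col2a1, the main collagen of cartilage, a peak with 21 Sox9 tags at 22.9 kb, for Col9a2 17 tags at 0.4 kb, for Sox6 18 tags at 0.1 kb, and for Sox9 itself 40 tags, with 9 of IgG, at 73.7 kb. Peaks further from these genes are not given, so that stronger ones within 100 kb may exist.

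Taken by nearest gene or by the gene they lie in, at any distance, 31 strong isolated peaks belonged to genes of the lists, 10 of them more than 100 kb from any listed TSS. Of these 31, 7 held the inverted pair, 22.6% (9.59 to 41.1), against 37.8% of all 518, and 1 of the 8 at genes of the matrix. Taken by the limit of 100 kb, which adds 6 peaks nearest to other genes, 9 of 27 held it, 33.3% (16.5 to 54). Of the pairs by nearest gene 6 are printed as examples, written as above, and that of Sox11 lies 233.1 kb from its gene.
Sox5, chr6:144213342-144213368: cttggaACAAtggagaaTTGTtcaacg
Sox11, chr12:28260668-28260696: tagaacACAAtccagccaaTTGTgctttc
Sox5, chr6:144158652-144158678: cacacaACAAtcaggcaTTGTtctaag
Acan, chr7:86135380-86135408: agctggACAAgggcaggctTTGTgcgcag
Igf1r, chr7:75240592-75240619: cagggcACAAtcaggccaTTGTttcttt
Bmpr1b, chr3:141811381-141811408: gcaagcACAAtgggccacTTGTcctcag
Both sequences named Sox5 are from introns of that gene.

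Among genes of the matrix, the peak 0.8 kb from the TSS of Col9a1, in its intron, held 42 Sox9 and 5 IgG tags. Col9a1 encodes a chain of collagen IX, and its peak held 22 tags of Bapx1, 7 of wildtype S-peptide and 3 of each NIH3T3 library, and neither motif nor pair. The peak 0.3 kb from Mia1, which encodes a protein secreted by chondrocytes, held 53 Sox9 and 5 IgG tags and the motif. The peak 62.9 kb from Acan, which encodes aggrecan, held 37 and 6 tags and the pair with 9 bases printed above. In an intron of Chst11, which encodes a chondroitin sulfotransferase, lay 2 peaks with 78 and 43 Sox9 tags against 3 of IgG each. The others were near Chsy1, Papss2 and Serpinh1, with 38, 33 and 32 Sox9 tags, of which only that at Chsy1 held the motif and none the pair. The peak at Serpinh1, the chaperone of collagen, had the highest FDR among the 523 by the authors' values, 30.4%.

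Among transcription factors, Sox5 was the nearest gene to 4 peaks, all in its introns. They held 67, 60, 57 and 39 Sox9 tags against 6, 4, 2 and 3 of IgG, and those with 67 and 39 held an inverted pair with 7 bases. Runx1 was nearest to 3, with 38, 35 and 30 Sox9 tags and no pair. Sox4 was nearest to 2, with 64 and 34, the closer of them 260.4 kb from its TSS. The highest of these lists, with 90 Sox9 and 5 IgG tags, lay in an intron of Foxp1 and held both the motif and a pair with 8 bases. Wwp2, whose locus hosts a microRNA of cartilage, had a peak 0.2 kb from its TSS with 48 and 4 tags and neither sequence. The peak nearest to Sox11, 233.1 kb away, held 61 and 5 tags and a pair with 9 bases. Foxc1, Barx2 and Uncx were nearest to 1 peak each, with 46, 31 and 30 Sox9 tags. These lay 30.7, 190.1 and 75.8 kb from the TSSs.

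Of the receptors and signals, Fgfr2 held 2 peaks in its introns as annotated, with 77 and 43 Sox9 tags against 4 of IgG each, the latter nearest to the TSS of Oat. Fgfr1 held 1 with 58 and 4 tags, 4.5 kb from its TSS. Bmp5 held 1 with 36 and 4, 6.5 kb from its TSS. None of these held the pair or the motif. Bmpr1b, a receptor of bone morphogenetic proteins required in cartilage, held 1 with 30 and 3 tags and a pair with 8 bases, and Igf1r 1 with 31 and 2 tags and a pair with 8 bases. Of the neural genes, Notch1 had 1 peak with 35 and 5 tags and Slc1a3 1 with 34 and 6, neither with a pair. The peaks at these lists thus ranged from 30 to 90 Sox9 tags, below the strongest peaks of the set.

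In all, 477 genes were nearest to at least 1 of the 518 peaks, 36 to at least 2 and 3 to at least 3. These last were Sox5 and Etnk1 with 4 each, and Runx1 with 3. The peaks nearest to Etnk1 lay 94.3 to 363.6 kb from its TSS.

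The Bapx1 library was read at the same sites, since Bapx1 acts in the same tissue. Bapx1 tags per peak had a median of 13 (1 to 142) and wildtype S-peptide tags a median of 6 (0 to 35). Summed, 7594 stood against 3412, a scaled ratio of 1.85 (exact binomial 95% interval 1.78 to 1.93, counting error only), whereas 2 to 5 kb away the ratio was 1.01 (1.0 to 1.03). Over all other placed Sox9 peaks it was 1.51 (1.48 to 1.54). At the 87 strong peaks with another summit within 10 kb it was 2.15 (1.95 to 2.37), above the isolated ones, so that a raised ratio was not particular to the latter. Counted per base against its own tags 2 to 5 kb away, the Bapx1 library stood at 2.33 (2.28 to 2.39) and the wildtype S-peptide library at 1.28 (1.23 to 1.32), so the control also stood above its own surroundings at these sites. A Bapx1 count of at least 10 that was 3-fold or more above the control, on scaled tags with 1 added, was found at 9.36% of all 3602 placed peaks. Among the strong isolated ones it was found at 73 of 518, 14.1% (11.2 to 17.4), against 8.56% of the others (Fisher's exact test, adjusted p = 0.00038).

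**Figure D5:**
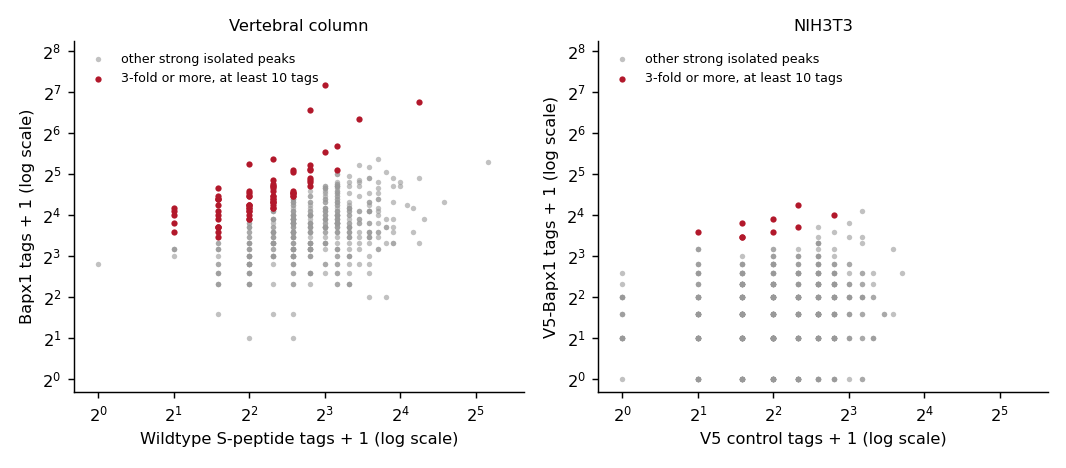
Tags within 250 bp of the placed summit, with 1 added, of Bapx1 against its control for each of the 518 peaks, on log axes; vertebral column on the left and NIH3T3 on the right. Red points are the 73 and 9 peaks at 3-fold or more with at least 10 Bapx1 tags, and the highest on the left holds 142 Bapx1 tags.

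The summit lay inside a peak that the authors called for Bapx1 in the vertebral column for 48 of the 518, 9.27% (6.91 to 12.1), against 5.45% of the other Sox9 peaks (Fisher's exact test, adjusted p = 0.00273). At the deposited coordinates this number was 1. Of the 3084 other Sox9 peaks, 2832 held fewer than 30 Sox9 tags. This comparison, like that of the 3-fold rule above, thus mostly set strong against weak peaks. The share for the strong peaks with another summit within 10 kb is not given. These 48 held the inverted pair in 8 cases, 16.7% (7.48 to 30.2), against 188 of the other 470, 40% (35.5 to 44.6), and the difference was significant (Fisher's exact test, adjusted p = 0.0029). A comparison of the 2 subsets was chosen after the values had been seen. The letters known for Bapx1, TAAGTG or TGAGTG on either strand, lay within 50 bp of the summit in 10.2% of the 518 and 11.8% of the flanking windows (p = 0.395 by Fisher's exact test, 0.738 adjusted as below), and in 7 of the 48.

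Taken by the ratio of Bapx1 to wildtype tags with 1 added, the first of the peaks was intergenic on chromosome 16, 142.2 kb from Psmg1, with 142 Bapx1 and 7 wildtype S-peptide tags, 88 Sox9 and 5 IgG tags, and a pair with 7 bases. In NIH3T3 the same site held 3 tags of V5 Bapx1 and 2 of the control. The second was intergenic on chromosome 13, 56.3 kb from Hist1h2al, with 93 and 6 tags, 48 Sox9 and 3 IgG tags, and the motif. The third lay in an intron of Slc4a4, with 37 and 3 tags, 30 Sox9 and 0 IgG tags, and neither sequence. All of these 3 lay inside a Bapx1 peak of the authors' list.

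In NIH3T3 the same sites held few tags. V5 Bapx1 tags had a median of 2 (0 to 18) and control tags a median of 3 (0 to 12), and summed 1557 stood against 1915, a scaled ratio of 1.14 (1.06 to 1.22). Between 2 and 5 kb away the ratio was 1.01 (0.991 to 1.04), and at the other Sox9 peaks it was 1.22 (1.19 to 1.25), with overlapping intervals for these peaks and the strong isolated ones. The control alone stood at 1.23 (1.17 to 1.29) per base against its own tags 2 to 5 kb away. The same rule of 3-fold was met at 2.28% of all placed peaks and at 9 of the 518, 1.74% (0.798 to 3.27), against 2.37% of the others (Fisher's exact test, adjusted p = 0.51). The ratio was 1.70 (1.47 to 1.96) over the 106 peaks within 5 kb of a TSS and 0.941 (0.845 to 1.05) over the 231 distant ones. Per base against its own tags 2 to 5 kb away, the control stood at 1.03 (0.925 to 1.15) near a TSS. At the distant peaks it stood at 1.32 (1.22 to 1.41). The V5 Bapx1 library stood at 1.56 and 1.30. The control thus differed between these groups too, and its part in the gap was not tested. In the vertebral column the order of the ratio was the opposite, with 1.60 (1.46 to 1.74) near a TSS and 2.04 (1.92 to 2.17) far from one. The highest NIH3T3 count, 18 against 4 of the control, was 0.2 kb from the TSS of Mtf2. In NIH3T3, 4 of the 518 summits lay inside a Bapx1 peak, 0.772% (0.211 to 1.97), against 1.72% of the other Sox9 peaks, which did not differ significantly (Fisher's exact test, adjusted p = 0.203), and 1 of the 4 lay also inside a Bapx1 peak of the vertebral column. At the deposited coordinates the number was 4 as well, and 2 of the peaks were in both counts.

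Letters known for other factors were counted at the summits and in the flanks, with p-values adjusted over 7 searches, that for Bapx1 included. The letters known for NFI factors were searched as well, but their counts are not given and are not part of this adjustment. TGANTCA (AP1) was found at 2.51% of the summits and 3.19% of the flanks, TGTGGT (Runx) at 7.53% and 6.47%, GGAATG (TEAD) at 6.56% and 6.95%, TGTTTAC (Fox) at 2.12% and 1.83%, and CAGCTG or CATCTG (E-box) at 13.5% and 12.1%, none of which differed significantly (Fisher's exact test, adjusted p = 0.738 to 0.831). The letters AGATAA, known for GATA factors, lay at 3 of 518 summits, which is 0.579%, while 5.31% of the flanks held them (adjusted p = 1.78e-06 by Fisher's exact test). At the summits of the other Sox9 peaks the share was 2.37%, also below these flanks, and this was not tested. The median share of G and C was 49.0% within 50 bp of the summit and 45.5% and 46.5% in the left and right flank, and its part in the lower number of AGATAA was not tested.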

How the data were processed

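For each of the 6 libraries the authors deposited the positions of uniquely mapped tags, listed as 35 bp, and for each ChIP library the peaks from MACS, called over its control with a p cutoff of 1e-05. In the peak list deposited for Sox9, the authors give the tag count, 10 times −log10 (p) as a score, the fold enrichment and the FDR in percent, and these values were not recomputed. Per the study's methods a tag had at most 2 mismatches, and the submitters' processing notes name mm9 as the build.

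Tags were counted once per position and strand by the middle of the listed interval. The mm8 chromosome ends were written from general knowledge of that assembly. For placement, tags in bins of 50 bp, at most 3 per bin, within 150 kb of a peak were matched over 8000 kb on either side, and then by the bases within 12 bp of the tags' 5′ ends. A peak counted as placed if the 30 kb on either side gave the displacement of the wider window or of 1 of its sides. In these 30 kb the best displacement also had to score at least 5 above the next best by the base composition. This is a match between libraries and not a conversion with a chain file, and summits may be off by 1 or 2 bp. Genes are GENCODE on mm9 (NCBIM37). Shares have exact binomial (Clopper-Pearson) 95% intervals, which cover counting error only, and the tests on them were Fisher's exact, two-sided. Regions are not replicates, so that these describe 1 library. Placement and pair search were tested on simulated data that were simpler than the real ones. The simulated displacements were even across each window and smaller than the largest found here. The simulated sequences held only C and G around the written pair, so that no other pair could arise. Python 3.11.15 with SciPy 1.17.1 and pysam 0.24.0 was used.

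The rule, the gene lists and the tests were chosen with earlier results of these data known. Named were the 15 placed peaks with the most Sox9 tags and 1 that could not be placed, every peak nearest to or within a gene of the lists, the 3 with the highest ratio of Bapx1 to wildtype S-peptide tags, and the first 3 on either side of the tag minimum. Others were named after their values were seen. The sequences of some pairs are not reported here.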

Additional observations from a re-analysis of the deposited data

How the results depend on the processing

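No pairing of libraries by replicate was possible because there was 1 library per condition. Each summit has its own flanks, but the tests of summits against flanks took all windows as separate units and did not use this pairing. The number of strong isolated peaks followed the limits that define them: of 523, a minimum of 20 Sox9 tags gave 1236 and one of 40 gave 267, and a limit of 3 IgG tags gave 260, while a limit of 10 IgG tags gave 639, other distances to a summit 474 and 568, and counting tags by their 5′ end, an alternative added after seeing the data, 517. The share with the Sox motif was no longer significantly above the flanks at the deposited coordinates, 18.3%, or among the 15 peaks with a displacement of at most 100 bp, 40% (Fisher's exact test, p = 0.14), where few peaks were left. The share with the inverted pair fell to 1.93% at the deposited coordinates and was still above its flanks (Fisher's exact test, p = 0.0104). For 10 of the placed peaks the displacement was 0, so that both positions were the same, and their part in this share was not tested. The ratio of Bapx1 to wildtype S-peptide tags was 2.11 within 100 bp in place of 1.85 within 250 bp, and the cause was not tested. With the pair at the deposited coordinates included, 20 of the 26 alternatives kept direction and side of the threshold or moved by less than the interval, or for counts by less than 1.5 times. The alternatives for the inverted pair, and the motif window centred between the strands, were added after seeing the data. Allowing 1 letter to differ raised the share of peaks with the pair from 37.8% to 71.6%, and that in the flanks from 0.483% to 14.7%. With no replicate, an error beyond counting could not be given for any value.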
